A study of Homo sapiens with 2 samples.

Results

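Small heat shock proteins and the co-chaperone BAG3 were examined in lung fibroblasts in which periostin had been knocked down. The gene set held 8 genes, of which 7 code for small heat shock proteins (HSPB1, HSPB2, HSPB3, HSPB6, HSPB7, HSPB8 and CRYAB) and 1 codes for BAG3, out of 21743 genes that could be named on the array and 16052 genes for which a ratio could be given. All 8 were found through the RefSeq accessions of their probes, with 10 probes on 19 spots, and each carried the scanner software's flag for a signal well above background on both arrays, although HSPB3 and HSPB7 were dim with control siRNA. They were chosen with the ratios on these same arrays already known, so every ratio is given as a description.

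The cells were MRC-5, a cell line of fibroblasts from human fetal lung. A culture treated with siRNA for periostin, a matricellular protein encoded by POSTN, was compared with a culture treated with control siRNA, each at 10 nM for 48 h with RNAiMAX as transfection reagent. RNA of each culture was labelled with Cy3 and hybridized to 1 single-colour Agilent array, so that each condition is 1 culture and 1 array. The comparison therefore had no replicate and no test was possible, and the errors given below cover spots and not cultures.

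Small heat shock proteins share an alpha-crystallin domain and assemble into oligomers that hold unfolding proteins in a soluble state without using ATP, until chaperones of the HSP70 family refold them. BAG3 binds HSP70 through its BAG domain and HSPB8 through short IPV motifs, and directs damaged proteins such as filamins to autophagy. HSPB1 and CRYAB are found in many tissues and are induced by heat shock factor 1 under stress, whereas HSPB2, HSPB3 and HSPB7 are best known from heart and skeletal muscle.

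The signal was log2 transformed and scaled so that both arrays had the same 75th percentile. In this unit POSTN, the gene targeted by the siRNA, had a signal of 2638 with control siRNA and 280 with periostin siRNA, in the direction the labels give. GAPDH, a glycolytic enzyme used as a reference, had a log2 ratio, taken throughout as periostin siRNA over control siRNA, of 0.04 ± 0.04 (SD, 10 spots), and ACTB, a cytoskeletal reference gene, had 0.08 with a sign that changed between settings. The signal was well above background for 58.0% of the spots with control siRNA and 58.9% with periostin siRNA, and no spot was saturated. Over all 16052 genes the median log2 ratio was 0.06.

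Each of the 8 genes had a higher signal with periostin siRNA than with control siRNA, against 54.5% of all measured genes. HSPB3 and HSPB7 were more than 3-fold higher, which 3.37% of all measured genes were, and none of the 8 was more than 3-fold lower, against 2.75% of all genes. At a limit of 2-fold, HSPB8 and HSPB2 joined them, giving 4 of 8 genes, against 7.97% of all genes. Since the genes were selected on this comparison, nothing is read from these counts. In RNA of a whole culture, more or fewer cells of a type and more or less RNA per cell cannot be told apart. The median log2 ratio of the 8 genes was 1.05 and their range was 0.16 to 4.16.

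**Figure D1:**
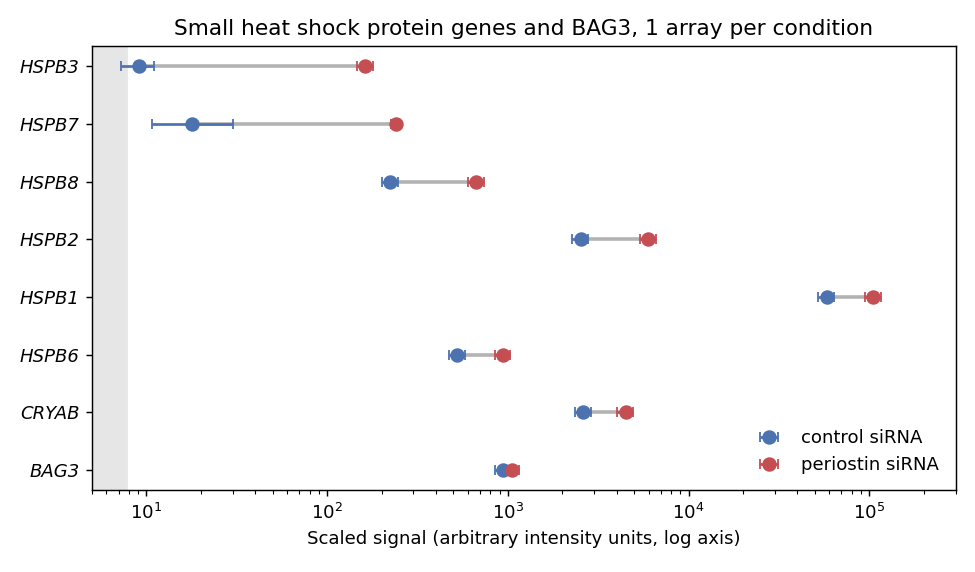
Scaled signal (log axis, arbitrary intensity units) of the brightest probe of each gene with control siRNA (blue) and periostin siRNA (red), 1 array each. Bars are the propagated error of the spot or, for HSPB7, the SD over 10 spots, and the grey zone lies below 7.77, the higher of the lowest detected signals of both arrays. HSPB3 and HSPB7 started from signals of 9.11 and 17.9, near this zone, whereas the points of BAG3 at 944 and 1052 nearly coincide.

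Among the muscle-type members, HSPB3, a small protein that forms a complex with HSPB2, had a signal of 9.11 with control siRNA and 162.9 with periostin siRNA. The log2 ratio was 4.16 with a propagated error of 0.33, a fold of 17.9, and 11 of the measured genes had a higher ratio. The control value was close to background. On the scanner image the HSPB3 spot had a median pixel of 43.0 under control siRNA and of 217 under periostin siRNA, whereas 308 negative control spots had a median of 29.0 on both arrays and a 95th percentile of 33.0 and 32.5. The HSPB3 spot thus lay above that percentile on both arrays, by a small margin with control siRNA.

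HSPB7, known as the cardiovascular small heat shock protein, was printed on 10 spots. With control siRNA the lowest spot was 13.1, the median 15.2 and the highest 73.9, and with periostin siRNA they were 213.4, 243 and 254. The spots of the arrays did not overlap. They are copies of 1 probe on 1 array per condition, so this describes spots and not cultures. The mean log2 ratio was 3.74 ± 0.75 (SD over 10 spots), and the ratios of single spots lay between 1.72 and 4.25. The spread came mainly from 2 control siRNA spots, at 21.3 and 73.9, that carried an outlier flag of the scanner software, and without these spots the ratio was 4.03 ± 0.17 (SD over 8 spots). HSPB7 and HSPB3 differed by 0.42, less than their combined error of 0.82, and cannot be ranked.

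**Figure D2:**
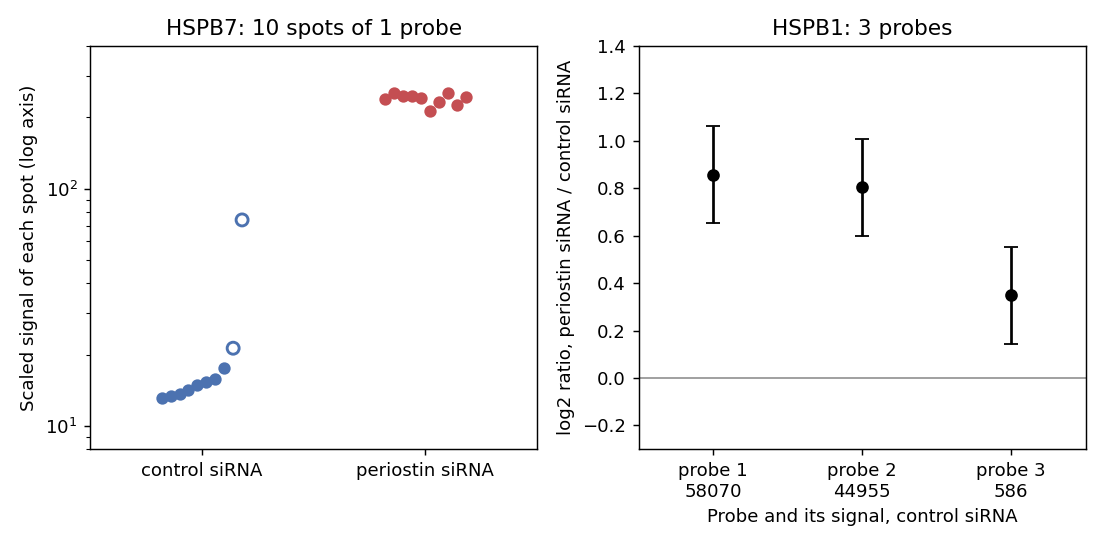
Left, scaled signal (log axis) of the 10 HSPB7 spots on each array, with open circles for the 2 spots that carried an outlier flag. All spots with control siRNA were at or below 73.9 and all spots with periostin siRNA at or above 213.4. Right, log2 ratio of the 3 HSPB1 probes with the propagated error, ordered by their signal with control siRNA, of which the dimmest probe gave 0.35 and the others 0.86 and 0.80.

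HSPB2, which binds the kinase DMPK in muscle, had a signal of 2528 with control siRNA and 5989 with periostin siRNA, giving a log2 ratio of 1.24 with a propagated error of 0.20. CRYAB, also called alpha-B-crystallin and the best studied chaperone of desmin filaments, had 2616 and 4477, a log2 ratio of 0.78 with the same error. HSPB2 and CRYAB are neighbours in the genome, so their ratios were set side by side, and they differed by 0.47 with a combined error of 0.29. C11orf52, which shares a read-through transcript with HSPB2, had 104.4 and 103.3, a log2 ratio of -0.02. The signal of HSPB2 and of CRYAB was thus higher with periostin siRNA, and that of the adjoining C11orf52 was about equal on both arrays.

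HSPB6, also called HSP20 and found in smooth and cardiac muscle, had a signal of 526 with control siRNA and 937 with periostin siRNA, giving a log2 ratio of 0.83 with a propagated error of 0.20. HSPB1, also called HSP27, which binds actin filaments and is phosphorylated under stress, was measured by 3 probes. Its brightest probe had 58070 and 105159, a log2 ratio of 0.86, and another had 44955 and 78475, a log2 ratio of 0.80. The remaining probe, with 586 and 745, gave 0.35, so the probes had the same direction but not the same size. RefSeq lists the pseudogenes HSPB1P1 and HSPB1P2, copies that a probe may not tell apart from HSPB1. HSPB1, HSPB6 and CRYAB could not be ranked, since even HSPB1 and CRYAB differed by 0.08, below the combined error of 0.29.

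HSPB8 and BAG3 bind each other. HSPB8, also called HSP22, had a signal of 223 with control siRNA and 670 with periostin siRNA, giving a log2 ratio of 1.58 with a propagated error of 0.20. Its fold of 2.998 lay just under the 3-fold limit, and it passed that limit without scaling, at 3.09-fold, and when only detected spots set the scale, at 3.003-fold. BAG3 had 944 and 1052, a log2 ratio of 0.16 with a propagated error of 0.20, so the difference was smaller than the error of a spot, and 41.9% of the measured genes had a higher ratio. The log2 ratios of HSPB8 and BAG3 differed by 1.43, with a combined error of 0.29.

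In order of the log2 ratio the genes stood as HSPB3, HSPB7, HSPB8, HSPB2, HSPB1, HSPB6, CRYAB and BAG3. The steps from HSPB7 to HSPB8, of 2.15, from HSPB8 to HSPB2, of 0.34, from HSPB2 to HSPB1, of 0.39, and from CRYAB to BAG3, of 0.62, were larger than the combined error of the genes on either side. A measure of error from the arrays themselves used probes printed 10 times with every spot well above background on both arrays. Brightness was the mean log2 signal of both arrays. The 50 such probes closest in brightness had an SD of the log2 ratio between spots of 0.24 for HSPB3 and 0.21 for HSPB7. For HSPB1, HSPB2, HSPB6, HSPB8, CRYAB and BAG3 it was 0.05 to 0.08. The mean brightness of HSPB3 and HSPB7 lies well above their control signals, so 0.24 and 0.21 do not describe noise at those dim signals. The 10 spots of HSPB7 itself had an SD of 0.75. The propagated error of 0.20 is larger than the SD of 0.05 to 0.08 for the bright spots. Neither error covers a difference between cultures.

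**Figure D3:**
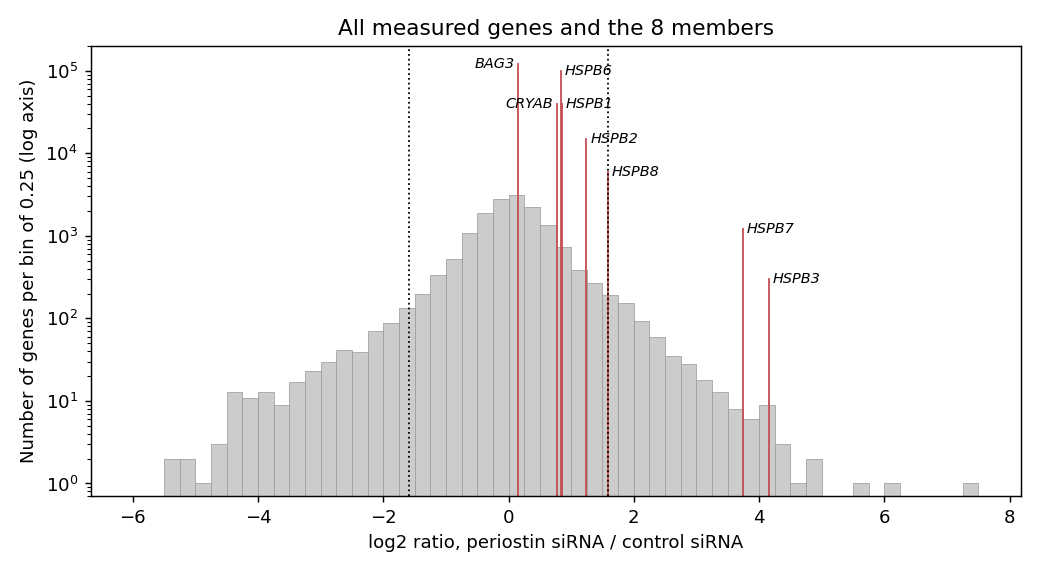
Number of genes (log axis) in bins of the log2 ratio (periostin siRNA over control siRNA), 0.25 wide, over 16052 measured genes, with red lines for the 8 genes and dotted lines at 3-fold. HSPB3 at 4.16 and HSPB7 at 3.74 stand in the upper tail, HSPB8 at 1.58 lies at the dotted line, and BAG3 at 0.16 lies near the peak.

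The promoters of the genes were read for motifs of known regulators. Since the genes were selected on this comparison, nothing about regulation is read from the shares below. RefSeq promoters were at hand for 6 of the 8 genes, but not for HSPB2 and CRYAB, which were not searched. The 250 bases before the start were searched on both strands. The paired heat shock element, the binding motif of heat shock factors, was written as GAANNTTC or TTCNNGAA. It was present in 4 of the 6 promoters (HSPB1, HSPB3, HSPB6 and HSPB8), against 11.6% of 35116 promoters in the table. The longer triple element, a paired one followed after any 2 bases by another GAA or TTC in alternation, was in none of the 6 and in 0.441% of all promoters. The MEF2 motif, bound by muscle transcription factors, was in 2 of the 6 (HSPB3 and HSPB7) and in 2.80% of all promoters, and a TATA box, TATAAA, was in 3 of the 6 (HSPB3, HSPB6 and HSPB7) and in 10.7% of all promoters. The CArG box of serum response factor was in none of the 6 and in 1.16% of all promoters. The promoter of BAG3 was searched and had none of these motifs. The motifs other than the heat shock elements were chosen after the sequences had been read.

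The promoters of the 3 genes with the largest ratios and of HSPB1, the bright general member, are shown 5′ to 3′, ending at the base before the start. Capitals mark the paired heat shock element, the MEF2 motif and TATAAA. In HSPB3 the paired element begins 242 bases before the start, and the MEF2 motif, which begins 129 bases before it, overlaps 1 of 2 TATAAA matches. In HSPB7 the MEF2 motif begins 82 bases and TATAAA 28 bases before the start. The paired element begins 88 bases before the start in HSPB8 and 182 bases before it in HSPB1. A match describes these letters and does not show that a factor binds there.
HSPB3 (GRCh38.p14, chr5:54455449-54455698, + strand): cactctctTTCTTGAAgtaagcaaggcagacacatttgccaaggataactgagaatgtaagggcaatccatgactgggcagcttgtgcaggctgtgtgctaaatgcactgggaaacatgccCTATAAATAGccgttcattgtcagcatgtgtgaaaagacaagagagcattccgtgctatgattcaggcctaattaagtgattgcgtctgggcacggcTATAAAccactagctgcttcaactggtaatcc
HSPB7 (GRCh38.p14, chr1:16018044-16018293, - strand): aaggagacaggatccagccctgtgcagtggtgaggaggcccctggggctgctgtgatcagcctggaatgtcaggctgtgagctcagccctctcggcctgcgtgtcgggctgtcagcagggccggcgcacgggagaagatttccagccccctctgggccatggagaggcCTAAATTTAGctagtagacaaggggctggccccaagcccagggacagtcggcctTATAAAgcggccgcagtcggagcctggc
HSPB8 (GRCh38.p14, chr12:119178681-119178930, + strand): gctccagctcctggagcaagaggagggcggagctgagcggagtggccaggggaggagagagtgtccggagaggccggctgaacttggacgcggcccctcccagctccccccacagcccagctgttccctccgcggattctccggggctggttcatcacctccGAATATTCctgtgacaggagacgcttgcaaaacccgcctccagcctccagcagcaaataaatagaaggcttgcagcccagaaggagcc
HSPB1 (GRCh38.p14, chr7:76302423-76302672, + strand): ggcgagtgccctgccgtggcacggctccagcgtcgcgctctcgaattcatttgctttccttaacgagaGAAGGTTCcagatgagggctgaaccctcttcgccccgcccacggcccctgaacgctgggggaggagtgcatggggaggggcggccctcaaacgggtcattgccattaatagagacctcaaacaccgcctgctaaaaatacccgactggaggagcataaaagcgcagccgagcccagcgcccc

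The other chaperones give the setting of these values. Of the 4 further listed genes that have carried a small heat shock protein name, 3 could be measured. HSPB9 at 0.23, HSPB11 at 0.04 and CRYAA at -0.03 were close to the median of all genes. HSPB11 is now named IFT25, and whether it belongs to the class was not examined. The sign of HSPB11 and of CRYAA changed between settings. Of the other BAG proteins, BAG2, which inhibits the ubiquitin ligase CHIP, had the highest log2 ratio at 0.31, and BAG1, the founding member, the lowest at -0.18, while BAG6 was not analysed here.

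Most listed genes of the HSP70, HSP40, HSP90 and chaperonin groups, co-chaperones included, had a lower signal with periostin siRNA, against 45.5% of all measured genes. This held for 11 of 15 measured genes of the HSP70 and HSP110 families, with a median log2 ratio of -0.52, for 8 of 13 HSP40 genes, with a median of -0.18, for 11 of 12 genes of HSP90 and its co-chaperones, with a median of -0.55, and for 10 of 10 chaperonins, with a median of -0.62, although TRAP1, CDC37, DNAJA2, DNAJA3 and DNAJB5 changed sign between settings. More than 2-fold lower were 1 of 15 HSP70 and HSP110 genes, 0 of 13 HSP40 genes, 2 of 12 genes of the HSP90 group and 3 of 10 chaperonins, against 6.42% of all genes. More than 2-fold higher were 1 of 15, 1 of 13, 0 of 12 and 0 of 10, against 7.97% of all genes. Under scaling on the median, which shifted the median of all genes by -0.13, these medians were lower still.

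HSPA1A and HSPA1B, the stress-inducible HSP70 genes, had a signal of 4146 and 2323 with control siRNA and of 2929 and 1616 with periostin siRNA. Their log2 ratios were -0.50 and -0.52, and they are near-identical copies that may share signal. HSPA6, which is nearly silent without stress, was dim, with 28.1 and 34.7 by its brighter probe, a log2 ratio of 0.30. Its other probe was not well above background with control siRNA and had 57.8 with periostin siRNA, at least 7.46-fold higher, so the HSPA6 probes differed in size. HSPA13, a microsomal HSP70, was 4.01-fold lower and HSPA12A, a distant relative, higher at 1.15. DNAJA4, an HSP40 gene, was not well above background with control siRNA and was at least 3.80-fold higher with periostin siRNA.

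HSP90B1, the HSP90 of the endoplasmic reticulum, had a log2 ratio of -1.26, and its other probe gave -1.50. CHORDC1, a co-chaperone of HSP90, had -1.15, and its other probes gave -1.16 and -1.20. Of the chaperonins, HSPD1, which folds proteins in mitochondria, had -1.15, and the subunits CCT2 and CCT8 of the cytosolic chaperonin had -1.04 and -1.22. No chaperonin and no gene of the HSP90 group was more than 2-fold higher.

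**Figure D4:**
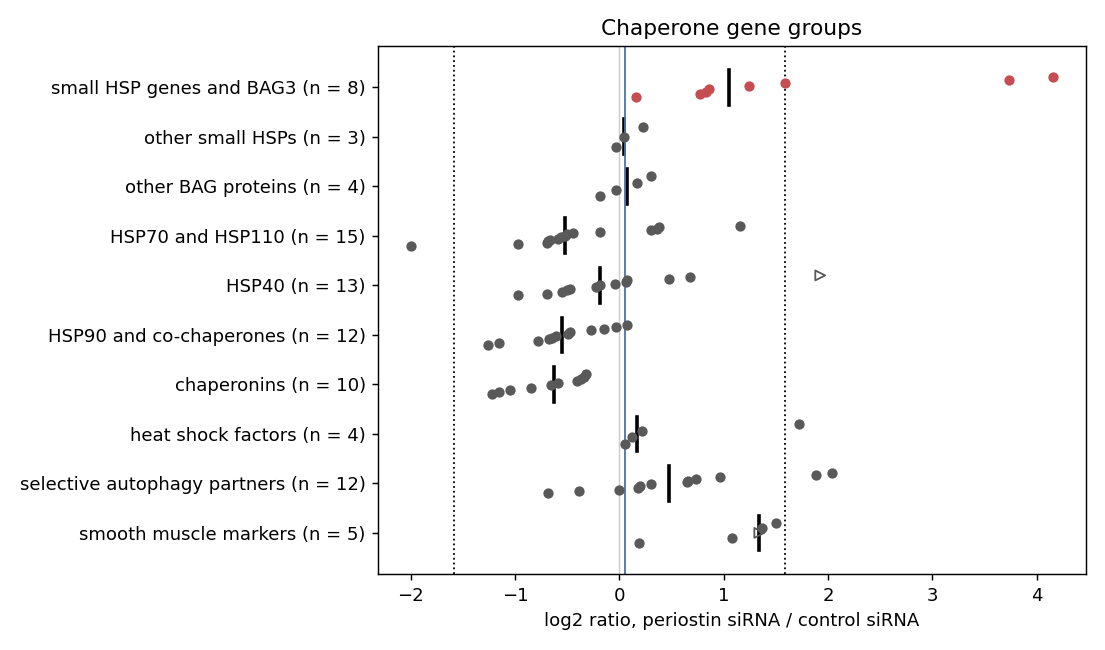
Log2 ratio (periostin siRNA over control siRNA) of each measured gene, by group, 1 point a gene, with a black bar at the median of the group, a blue line at the median of all genes, 0.06, and dotted lines at 3-fold. Open triangles are genes that were well above background with periostin siRNA alone. The group of heat shock factors includes their binding protein HSBP1, at 0.21 by its brightest probe and -0.44 by its other probe. The 8 genes (red) lie above 0 with a median of 1.05, whereas all 10 chaperonins lie below 0 with a median of -0.62.

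Genes that heat shock factor 1 induces in the classic heat shock response were also listed as a group, without the 8 genes. Of these, 20 of 20 could be measured, 16 had a log2 ratio below 0, against 45.5% of all genes, and the median was -0.63. By the brightest probe of each gene, HSPD1 and CHORDC1 were more than 2-fold lower, against 6.42% of all genes, and none was more than 2-fold higher. The dimmer HSPA6 probe, however, was 7.46-fold over an undetected control signal. The paired heat shock element was in the promoters of 12 of the 18 classic genes found in the table, the same share of 66.7% as in the 6 promoters of the small heat shock protein set, and the triple element was in 7 of the 18. The list overlaps the chaperone families above. HSF1 itself had a log2 ratio of 0.12, with 0.09 and -0.07 from its other probes, and HSF2 had 0.05, and the sign of both changed under scaling on the median. HSF4, a factor known from lens, was dim, with 30.9 and 101.9, a log2 ratio of 1.72.

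BAG3 and HSPB8 act in selective autophagy together with HSPA8, the ligase STUB1 and the receptor SQSTM1. Of 12 listed partners and clients, 9 had a log2 ratio above 0, against 54.5% of all genes, and the median was 0.48. The 2 that were more than 2-fold higher, against 7.97% of all genes, were SYNPO at 2.04 and SYNPO2 at 1.89. SYNPO2, which links BAG3 to the autophagosome machinery in muscle, was dim with 28.4 and 104.8, and its other probe was below background under both conditions. SYNPO, an actin-binding relative, had 512 and 2107, but its other probe gave 0.46. The filamins FLNC at 0.73 and FLNA at 0.31, whose damaged form BAG3 clears, had the direction of HSPB8, although the other FLNA probe gave -0.07. HDAC6, also counted above 0, had 0.66, but its dimmer probe gave -0.29. HSPA8, the constitutive HSP70, had -0.69, SQSTM1 -0.39, and STUB1, which encodes CHIP, -0.00 with a sign that changed between settings. Among filament proteins that small heat shock proteins bind, DES had the highest log2 ratio at 0.19 and SYNM the lowest at -0.76, and VIM, the main filament of fibroblasts, had -0.12, which quantile normalization turned to 0.02.

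Since several of the genes are known from muscle, markers of cell types were read on the same arrays. All 9 fibroblast markers, among them COL1A1 and THY1, were well above background under both conditions. Their signals summed to 368588 (control siRNA) and 325570 (periostin siRNA), of which VIM alone gave 189263 and 174022. The markers differed in direction. The log2 ratio was below 0 for 6 of the 9, against 45.5% of all genes, and above 0 for 3. PDGFRA had the lowest at -0.90 and LUM the highest at 0.83, while COL1A1 had -0.54 and THY1 0.20. Of 8 skeletal and cardiac muscle markers, ACTA1, CKM, TTN, MYH7 and MB were not well above background under either condition. The other 3 were dim and none passed 2-fold. MYOG, a myogenic transcription factor, had 26.6 with control siRNA and 28.7 with periostin siRNA, and TNNT2, the cardiac troponin T, had 17.9 and 26.5, at 1.48-fold. MYOD1, a further myogenic factor, was well above background with periostin siRNA alone, at least 1.19-fold higher. The summed signal of the list was 66.6 and 80.0, and its part in the ratios of HSPB2, HSPB3, HSPB7 and CRYAB was not tested.

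Of 6 smooth muscle and myofibroblast markers 4 were more than 2-fold higher, against 7.97% of all genes, and the signals of the list summed to 12630 under control siRNA and to 31466 under periostin siRNA. They were CNN1 at 2.82-fold, TAGLN at 2.58-fold, ACTA2 at 2.11-fold and the dim MYOCD at 2.53-fold. The control signal of MYOCD, 8.33, was not well above background. DES had a log2 ratio of 0.19, and MYH11 was not well above background under either condition. Of 5 epithelial markers EPCAM, with 34.6 and 135.1, and KRT19, at 2.05-fold, were more than 2-fold higher, against the same 7.97%, whereas CDH1 and NKX2-1 were at background under both conditions, and the summed signal was 239 and 534. The summed signal of 3 endothelial markers was 124 and 128, and that of 6 immune markers was 36.6 and 57.8, with PECAM1 and HLA-DRA at background. The part of the smooth muscle and epithelial markers in the ratios of the 8 genes was not tested.

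The sizes of the largest ratios depended on how the background was treated. With normexp, a model-based background correction used with an offset of 50, HSPB7 had a log2 ratio of 1.90 and HSPB3 of 1.77, and with 16 added to the signal they had 2.87 and 2.83. In both cases the order of HSPB3 and HSPB7 was turned and both stayed above 3-fold. HSPB1, HSPB2, HSPB6, CRYAB and BAG3 moved by less than their propagated error in each of 10 settings. Under normexp HSPB8 had 1.29 and HSPB2 had 1.12, so the step between them was below their combined error of 0.29.

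**Figure D5:**
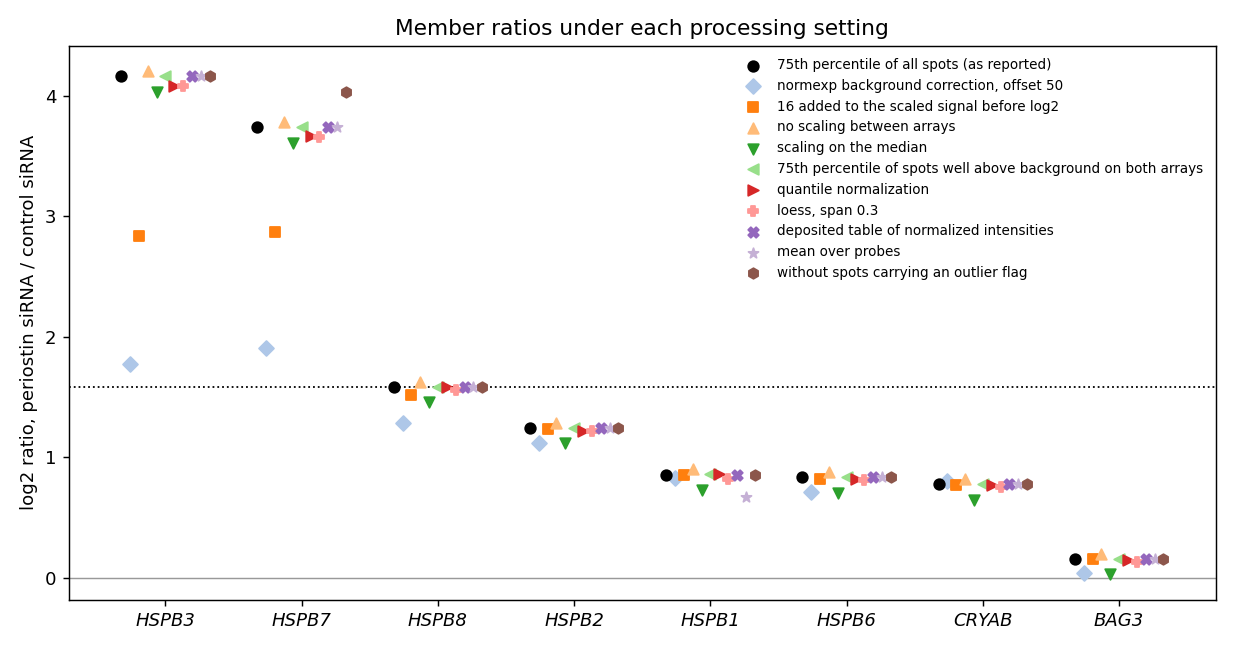
Log2 ratio (periostin siRNA over control siRNA) of each gene under the reported processing (black) and 10 other settings (coloured symbols), with a dotted line at 3-fold. The settings spread HSPB3 from 1.77 to 4.205 and HSPB7 from 1.90 to 4.03, and BAG3 only from 0.03 to 0.20.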

How the data were processed

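Total RNA of MRC-5 cells was measured on an Agilent SurePrint G3 human array for each condition. Per the file headers, Agilent Feature Extraction subtracted background from the deposited intensity values and detrended them, without scaling between arrays. The header names version 11.5.1.1 and the submitters' processing notes name 12.0.3.1, and the array was annotated on hg19. Flags for background and outliers are those of that program. A further table of the authors holds normalized intensity, equal for probes printed once to the scanner intensity times 3.65 (control siRNA) and 3.54 (periostin siRNA).

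Here log2 of the processed signal of 58717 non-control spots was scaled to a common 75th percentile, spots of a probe were averaged, and the brightest probe stood for a gene. For a probe detected on 1 array alone, the dim signal was raised to the lowest detected one (7.55 with control siRNA, 7.77 with periostin siRNA) where it lay below it, and its fold is a lower bound. RefSeq accessions (GRCh38.p14) named 65.1% of the spots. Promoter sequences are from the same RefSeq build and were used for sequence only. The 8 genes, the gene lists and the alternatives were chosen with earlier results of these data known. Named are the 8 genes, POSTN, GAPDH, ACTB, C11orf52, the heat shock factors HSF1, HSF2 and HSF4, the inducible HSP70 genes, every listed gene past 2-fold or else the highest and lowest, and a few list members chosen after their values were seen. Precision is limited by having 1 array per group, and no p-value was computed. Scaling, averaging and calls were tested on simulated data with changes planted only in bright genes. Signals as dim as those of HSPB3, HSPB7 and HSPB8, and folds given as bounds, were not covered. Python 3.11.15, numpy 2.4.6, pandas 2.3.3, R 4.3.3 and limma 3.58.1 were used. The alternatives were background corrections, scalings, the deposited table, the mean over probes, filters on dim or outlier spots, and a 2-fold limit.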

Additional observations from a re-analysis of the deposited data

How the results depend on the processing

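No paired analysis was possible because a lone array stands for each condition, and no replicate could be left out. All 8 genes had a log2 ratio above 0 under each of 10 settings, and 75 of the 80 values moved by less than the error of the gene. The exceptions were HSPB3 and HSPB7 under normexp, at 1.77 and 1.90, and with 16 added, at 2.83 and 2.87, and HSPB8 under normexp, at 1.29, where the offset pulls dim signals towards equality by construction. With a 2-fold limit 4 genes were higher, against 7.97% of all genes, in place of 2, against 3.37%. Without scaling 3 genes were more than 3-fold higher, against 3.64% of all genes. With detected spots setting the scale 3 genes were too, against 3.40%. The median of the 8 genes stayed between 0.92 and 1.09.

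Scaling on the median shifted all genes by -0.13. It gave list medians of -0.65 for HSP70 and HSP110, -0.31 for HSP40, -0.68 for HSP90 and -0.75 for chaperonins. The classic heat shock genes then had -0.76, autophagy partners 0.35 and filament proteins -0.25. Heat shock factors, listed together with their binding protein HSBP1, had 0.039. The same scaling turned the list of other small heat shock proteins, whose middle value was that of HSPB11, to -0.084 and the other BAG proteins to -0.059. Quantile normalization turned the filament proteins to 0.023 and the list of other small heat shock proteins, again by the value of HSPB11, to -0.017. Of all genes, 541 were more than 3-fold higher and 441 lower as reported (55.1% higher), 143 and 190 under normexp (42.9%), 269 and 311 with 16 added (46.4%), and 453 and 525 under scaling on the median (46.3%). Dim signals limit HSPB3 and HSPB7 most.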
